A study of Mus musculus with 30 samples.

Results

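Sciatic nerve transection (SNT) cuts the nerve through, while chronic constriction injury (CCI) compresses it with loose ligatures and leaves fibres in continuity. The comparison described here sets 4 SNT libraries, 2 at 2 days after injury (2 dpi) and 2 at 7 dpi, against 4 CCI libraries from the same days, 8 of the 30 libraries in the series, with day as the second factor. All mice were C57BL/6J. Microglia came from the caudal lumbar cord after perfusion, manual dissociation, removal of myelin and magnetic selection for CD11b, a surface protein that neutrophils, monocytes and other macrophages carry too. RNA of the selected cells was turned into Smart-Seq2 libraries, and the deposited values are FPKM, which scales fragments to transcript length and library size. The other 22 libraries, 2 naive, 7 from saline controls, 7 from morphine-treated mice and 6 from other injury groups (SNT at 1 and 4 dpi, spared nerve injury (SNI) at 7 dpi), enter only as descriptions. The labels do not say that each library came from its own mouse, so p-values measure the spread between these libraries alone, and they give no age or sex.

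Microglia of the dorsal and ventral horns respond to injury of a peripheral nerve although the injured axons lie outside the cord. Their known responses are division (microgliosis), driven in part by signalling through the receptor encoded by Csf1r, and gain of purinergic, complement and antigen-presentation genes. Division leaves a clear transcript signature: replication genes under E2F factors in S phase, and then mitotic genes that complexes with B-Myb and FOXM1 switch on. Promoters of such mitotic genes often carry CHR and CCAAT elements.

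No gene passed the test between SNT and CCI. Of 10799 genes tested, 0 (0%) had an adjusted p under 0.05 over both days, at 2 dpi, at 7 dpi, for the interaction of injury and day, or for 7 against 2 dpi (limma, Benjamini-Hochberg). At an unadjusted p under 0.05 the counts were 980, 783, 271, 137 and 103. Over both days 229 of the 980 had higher and 751 lower values in SNT. The lowest adjusted p was 0.482 over both days and 0.268 at 2 dpi. Differences below are SNT minus CCI on the log2(FPKM + 1) scale, which understates the change of low genes. The median difference of all tested genes was −0.33 over both days, −0.49 at 2 dpi and −0.17 at 7 dpi, and 69.5% of genes were negative. Quantile normalization moved that median to 0.00, so list medians are given beside it. Values of the 4 SNT libraries lay wholly below the 4 CCI libraries for 284 genes (2.63% of those tested) and wholly above for 124 (1.15%).

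The 30 libraries divide into 2 sets that cross the study's groups, and SNT against CCI follows that division almost library by library. Among 87 genes with a gap wider than 1.5 (log2) and at least 5 libraries on each side, 8 genes share 1 split and no other split is shared by more than 2. It puts 14 libraries in set 1 and 16 in set 2. Set 1 holds all 4 CCI libraries, replicate 2 of SNT at 7 dpi, both SNI, both naive, all 4 fixed-dose morphine libraries and 1 of 3 escalating-dose ones. Set 2 holds the other 7 SNT libraries, all 7 saline libraries and the other 2 escalating-dose ones. Ppp6r1, which encodes a regulatory subunit of protein phosphatase 6, ranged from 58.0 to 112 FPKM in set 1 and from 1.97 to 7.34 in set 2, and Tgfb1, the homeostatic cytokine of microglia, from 72.8 to 113 and from 1.60 to 19.4. The first principal component of the 30 libraries (39.2% of the variance) gave every set 1 library a score of at least 14.4 and every set 2 library at most −1.8, and each of the 30 libraries correlated best with one of its own set. At 2 dpi injury and set coincide, so the 2 cannot be told apart. At 7 dpi SNT has 1 library in each set, which allows 1 SNT library to be read against CCI within set 1, without a test. The labels give no batch, and what the sets stand for was not tested.

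**Figure D1:**
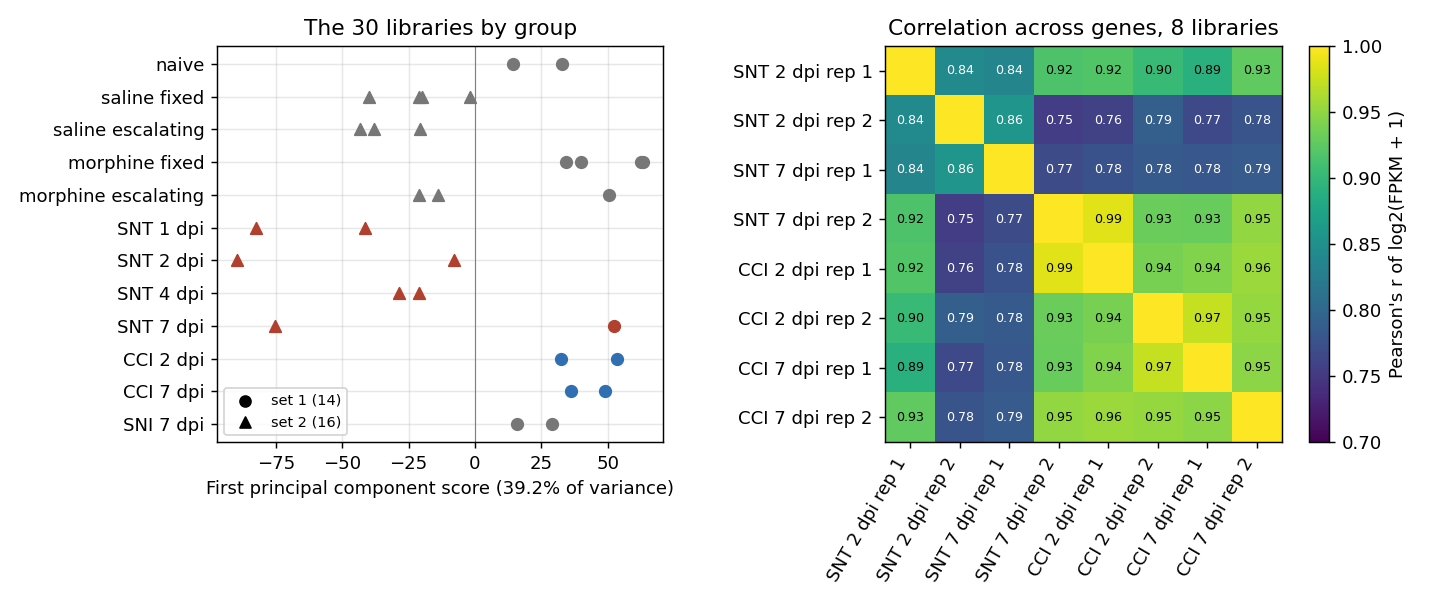
Left, score of each of the 30 libraries on the first principal component of log2(FPKM + 1), by group, with circles for set 1 and triangles for set 2, SNT in red, CCI in blue and other groups in grey. Right, Pearson's r across tested genes between the 8 libraries compared. CCI lies wholly in set 1, and SNT at 7 dpi has 1 library in each set.

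Replicate 2 of SNT at 7 dpi therefore stood with CCI. Its correlation across genes was 0.987 with replicate 1 of CCI at 2 dpi but 0.769 with its own replicate. Over the 2189 genes with at least 10 FPKM in all 8 libraries, it differed from that CCI library by a median of 0.0935 (log2), and 0.274% of genes differed by over 2-fold. Replicate 2 of CCI at 2 dpi and replicate 1 of CCI at 7 dpi formed the next closest pair, with r = 0.974. No pair shared more than 1 identical nonzero value, so none is an exact copy, but a sample measured again would not show this way. Whether replicate 2 of SNT at 7 dpi carries the right label cannot be checked from the labels, and every value within set 1 rests on it. The libraries also differ in complexity, since 8466 to 10352 genes reached 1 FPKM. The 10 most abundant genes took 25.9 to 36.6% of the total in the 3 set 2 SNT libraries and 12.4 to 16.2% in the other 5. The files give no counts, so depth is unknown.

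Genes of mitosis and G2/M had the lowest values in SNT relative to CCI of the gene lists described. Of 35 listed genes 34 were tested, 13 of them admitted through CCI libraries alone, and all 34 had a negative difference. The list median was −2.36 over both days, −2.38 at 2 dpi and −2.45 at 7 dpi. In 18 of the 34 (52.9%) every SNT library lay below every CCI library, against 2.63% of all genes, and 30 had an unadjusted p under 0.05, but none passed the adjusted test. DNA replication genes were negative in 31 of 31 tested (33 listed), with a median of −1.67, 8 of 31 (25.8%) without overlap and 22 at an unadjusted p under 0.05, and 10 of the 31 were admitted through CCI alone. Members admitted through 1 injury alone passed by their level in that injury, which favours a difference. The same was therefore read in genes with at least 1 FPKM in 2 libraries of each injury. Of 21 such mitosis genes 11 (52.4%) lay wholly lower in SNT, with a median of −2.33, and of 21 such replication genes 4 (19%), with −1.67, beside 1.93% and −0.35 for the 9594 such genes in all. Over these bulk libraries, fewer dividing cells and less RNA per dividing cell cannot be told apart.

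Many promoters of these genes carry the elements named above, and 4, chosen after their values were seen, are printed. They belong to genes whose SNT and CCI values do not overlap: 3 mitotic genes with a CHR match and 1 replication gene with an E2F match. Ccnb2 encodes cyclin B2 of the mitotic kinase, Racgap1 a GTPase-activating protein of the central spindle, Top2a the topoisomerase that untangles sister chromatids, and Cdc6 the factor that loads the MCM helicase. Each runs from 200 bases before the annotated start to 25 after it, 5′ to 3′ on the gene's strand, from RefSeq on GRCm38.p6 (the build also called mm10). Capitals mark CHR matches, which read TTTGAA in the common form of the element and TTCGAA in its rarer variant, boxes that read exactly CCAAT and, in Cdc6, the E2F match (TTTGGCGC, TTTCCCGC, TTTCGCGC or TTTGCCGC), each searched on both strands, so some capitals show the reverse complement of these letters.
Ccnb2 (chr9:70421530-70421754, minus strand): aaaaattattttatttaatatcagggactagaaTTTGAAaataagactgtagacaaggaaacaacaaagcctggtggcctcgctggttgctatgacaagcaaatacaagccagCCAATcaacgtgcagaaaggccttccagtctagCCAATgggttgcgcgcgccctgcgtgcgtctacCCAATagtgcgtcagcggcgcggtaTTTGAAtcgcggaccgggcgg
Racgap1 (chr15:99651632-99651856, minus strand): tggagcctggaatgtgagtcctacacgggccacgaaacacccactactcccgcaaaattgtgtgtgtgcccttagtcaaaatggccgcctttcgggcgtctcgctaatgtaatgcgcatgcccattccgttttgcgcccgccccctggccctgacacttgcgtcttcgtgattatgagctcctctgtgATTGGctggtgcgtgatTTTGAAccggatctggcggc
Top2a (chr11:99024165-99024389, minus strand): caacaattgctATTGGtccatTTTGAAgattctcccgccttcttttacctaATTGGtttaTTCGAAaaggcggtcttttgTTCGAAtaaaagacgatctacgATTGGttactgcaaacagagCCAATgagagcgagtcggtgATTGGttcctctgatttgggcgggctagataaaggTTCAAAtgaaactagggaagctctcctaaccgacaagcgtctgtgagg
Cdc6 (chr11:98907951-98908175, plus strand): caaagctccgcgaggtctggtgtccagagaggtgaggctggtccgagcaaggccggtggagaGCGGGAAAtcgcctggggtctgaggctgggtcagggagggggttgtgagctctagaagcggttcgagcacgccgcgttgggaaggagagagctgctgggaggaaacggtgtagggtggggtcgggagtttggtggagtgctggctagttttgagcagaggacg
A CHR match lay within the 300 bases around the start in 24 of 30 promoters (80%) of 29 mitosis genes, against 13.95% of the promoters of all tested genes. CCAAT boxes were in 83.3% and 37.9%. An E2F match was in 11 of 30 replication promoters (36.7%), against 3.93%. These matches describe the sequence and are no evidence of binding here.

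Values of 4 libraries are given as replicates 1 and 2 at 2 dpi, then replicates 1 and 2 at 7 dpi. Ccnb2 stood at 0.746 and 1.68 FPKM in SNT at 2 dpi and 1.48 and 2.44 at 7 dpi, against 4.61 and 53.7 in CCI at 2 dpi and 62.2 and 8.78 at 7 dpi, a difference of −3.05 (SE 0.77, n = 4 and 4 libraries). All SNT libraries lie below all CCI libraries, but CCI spans more than 10-fold: replicate 2 at 2 dpi and replicate 1 at 7 dpi are high, and the other 2 are close to SNT. Top2a had 1.32, 0.708, 2.90 and 3.50 FPKM in SNT and 4.11, 58.0, 73.0 and 11.4 in CCI. Racgap1 had 0.784, 0.378, 3.30 and 2.40 in SNT and 3.31, 50.1, 60.2 and 10.7 in CCI. The same 2 CCI libraries lead in both.

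Ccna2, cyclin A2 of S and G2 phase, was at 1.85, 0, 0 and 2.65 FPKM in SNT and 3.87, 50.7, 58.0 and 12 in CCI, with a difference of −3.55 (SE 0.83). Mki67, the Ki-67 protein of dividing cells, was at 0.428, 0.385, 0 and 2.39 in SNT and 2.29, 23.1, 47.9 and 6.06 in CCI. Here replicate 2 of SNT at 7 dpi is just above replicate 1 of CCI at 2 dpi, so the groups overlap. Kif20a, a kinesin of cytokinesis, was listed at 0 in all 4 SNT libraries and in replicate 1 of CCI at 2 dpi, and at 25, 36 and 5.18 in the other 3 CCI libraries. Foxm1, which encodes the mitotic transcription factor, was at 0.132, 0, 0.0327 and 1.32 in SNT and 2.05, 15.9, 23.8 and 4.59 in CCI. Foxm1 also separates the 2 library sets, narrowly, with at least 0.785 FPKM in set 1 and at most 0.761 in set 2. Within set 1 it differed by −2.34 at 7 dpi. Prc1 and Ccnb1, for a spindle midzone protein and cyclin B1, differed by −3.32 and −3.22, with the same order of CCI libraries.

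Among replication genes E2f1, the S phase transcription factor, had 0, 0.135, 0 and 3.71 FPKM in SNT and 5.45, 10.4, 17.0 and 4.42 in CCI, a difference of −2.60 (SE 0.59). Rrm2, the inducible subunit of ribonucleotide reductase, had 2.64, 1.53, 4.45 and 5.09 in SNT and 8.01, 45.9, 60.3 and 15.1 in CCI, also −2.60 (SE 0.61). Neither gene overlaps between the injuries. Cdc6 had 0, 0.0816, 0 and 0.350 in SNT and 1.15, 3.05, 5.37 and 0.643 in CCI, a low level throughout. Mcm6, a subunit of the replicative helicase, was at 6.14, 1.15, 11.2 and 29.7 in SNT and 41.5, 47.1, 60.3 and 16.6 in CCI. Its groups overlap, because replicate 2 of SNT at 7 dpi is above replicate 2 of CCI on that day. Uhrf1, which couples replication to DNA methylation, differed by −2.62.

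**Figure D2:**
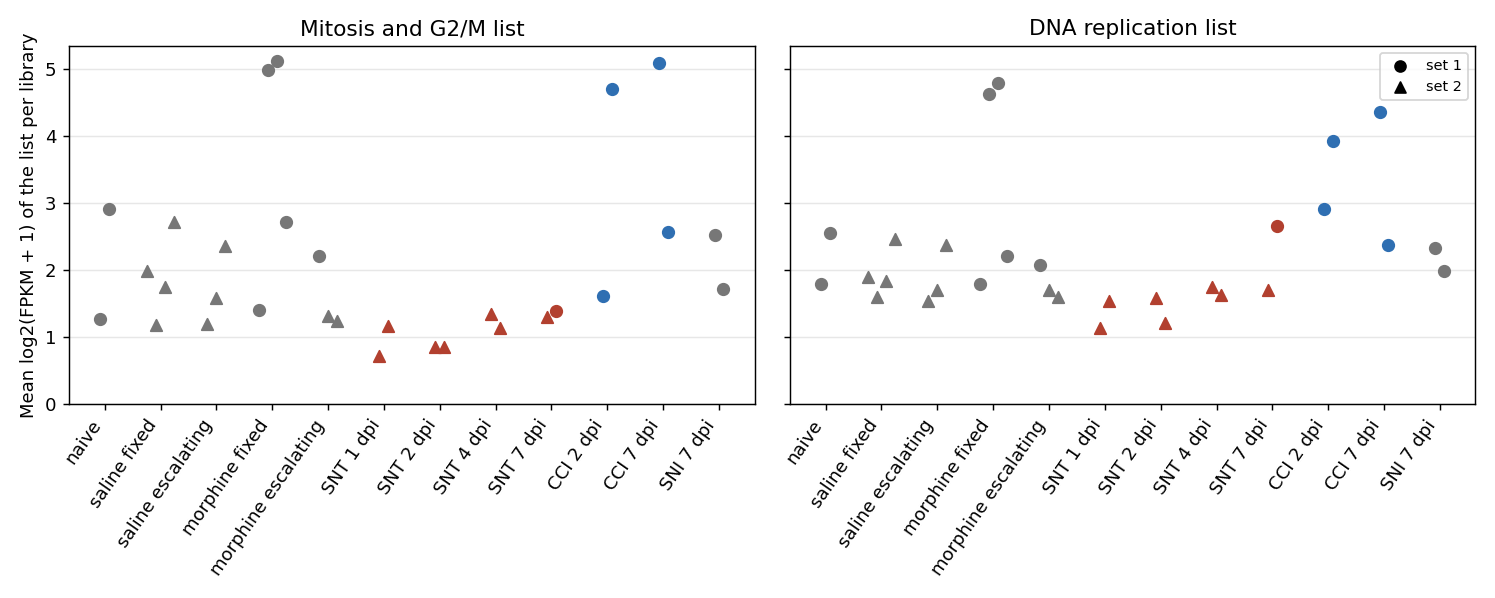
Mean log2(FPKM + 1) of the tested mitosis and G2/M genes (left) and DNA replication genes (right) in each of the 30 libraries by group, with circles for set 1, triangles for set 2, SNT in red, CCI in blue and other groups in grey. On the left, 2 CCI and 2 fixed-dose morphine libraries lie between 4.70 and 5.12 and the other 26 at or below 2.90.

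Over the whole list the mean per library was 0.85 and 0.85 in SNT at 2 dpi, 1.30 and 1.39 at 7 dpi, 1.60 and 4.70 in CCI at 2 dpi, and 5.08 and 2.56 at 7 dpi. Thus 1 CCI library of each day is high, while replicate 1 of CCI at 2 dpi differs from SNT by less than the CCI libraries differ among themselves. Of the other 22 libraries only 2 fixed-dose morphine libraries, at 4.99 and 5.12, reach the level of the 2 high CCI libraries. The 9 naive and saline controls span 1.17 to 2.90, and the 4 SNT libraries from 1 and 4 dpi 0.71 to 1.34. Both SNT libraries at 2 dpi are thus below all controls. With the 2 high CCI libraries left out, the mitosis median was −1.11 with 31 of 34 negative, and the replication median −0.92, against −0.39 for all genes.

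Inside set 1 the mitosis difference was as large as over all libraries of 7 dpi, and the replication difference smaller. Replicate 2 of SNT at 7 dpi, read against the 2 CCI libraries of its day and set, was lower for 34 of 34 mitosis genes, with a median of −2.37, where all tested genes had a median of 0.13. It lay below all 4 CCI libraries for 25 of 34 (73.5%), against 9.82% of all genes, and for 17 of the 21 (81%) not admitted through CCI alone, against 9.08% of all such genes. Replication genes were lower in 26 of 31, with a median of −0.59, and below all 4 CCI libraries in 12 (38.7%), or 7 of the 21 (33.3%) not admitted through CCI alone. With the library set as a term in a fit of all 30 libraries, the mitosis median was −1.85 and the replication median −1.09. All members were negative in both lists, beside a median of 0.00 for all genes. Only SNT at 7 dpi (1 and 1) and escalating-dose morphine (1 and 2) have libraries in both sets, so these groups alone fix the set term. Replicate 2 of SNT at 7 dpi is among them, so the fit is not independent of the reading within set 1. Its medians also take in 2 dpi, where injury and set coincide. In that fit 7 of 34 mitosis genes had an unadjusted p under 0.05 and none passed the adjusted test.

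Markers of neutrophils, whose dividing precursors also express cell cycle genes, were present in all 8 libraries. The neutrophil list summed to 3406, 21000, 19433 and 2926 FPKM in SNT and 4762, 3133, 8054 and 4392 in CCI, and no member was at 0 except 1 in replicate 2 of CCI at 7 dpi. Elane, the elastase made by promyelocytes, was at 15.6, 30.1, 22.3 and 12.9 in SNT and 31.9, 10.5, 32.8 and 9.69 in CCI. Of the 2 CCI libraries with high mitosis values, 1 has the second lowest Elane of the 8 libraries and the other the highest. The part of such cells in the cell cycle values was not tested. Homeostatic microglial genes were present in every library, with none of the 23 listed at 0.

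Outside the cell cycle, the genes of lowest p with values below CCI in every SNT library, 10 by the rule, included 4 cell cycle genes given above. Heca, the mouse homologue of the fly gene headcase, was at 1.10, 0.907, 1.36 and 2.57 FPKM in SNT and 9.23, 7.83, 8.79 and 15.5 in CCI, a difference of −2.19 (SE 0.41). The groups are well apart, and replicate 2 of SNT at 7 dpi, at 2.57, is nearer to the other SNT libraries than to CCI. Evi2b, a leukocyte membrane protein, was listed at 0 in 3 SNT libraries and at 13.8 in replicate 1 at 7 dpi, against 23.1, 28, 37.7 and 24.4 in CCI. Cul3, the scaffold of a family of ubiquitin ligases, had 3.33, 5.35, 1.70 and 6.46 in SNT and 19.4, 18.1, 22.2 and 24.9 in CCI. Within set 1 the 7 dpi differences were −1.83 for Heca, −4.97 for Evi2b and −1.72 for Cul3. The value for Evi2b rests on a listed 0 in that SNT library, and a listed 0 can be a failed estimate. The rule asks for no overlap, so the sign of such a difference was fixed in advance for every gene it named. Controls span 1.59 to 18.4 for Cul3, which also separates the 2 sets.

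Mbd2, a reader of methylated DNA, had 1.86, 4.99, 2.85 and 13.1 FPKM in SNT and 25.4, 20.6, 26.3 and 27.6 in CCI. Htra3, a secreted serine protease, had 7.12, 1.95, 4.52 and 13.4 in SNT and 14, 30.6, 38.5 and 39.8 in CCI. Spns2, the exporter of sphingosine 1-phosphate, had 4.76, 2.16, 3.87 and 24.8 in SNT and 26.4, 32.9, 42.7 and 32.2 in CCI. In each the SNT library of set 1 is the closest to CCI, and all 3 genes separate the 2 sets over 30 libraries. Htra3 and Spns2 passed the test when the spread was estimated from all 30 libraries (adjusted p = 0.0134 and 0.0333, limma), without the set as a term. Within set 1 the differences at 7 dpi were −0.98 for Mbd2, −1.48 for Htra3 and −0.56 for Spns2. Tgfb1, 1 of the 8 genes whose split defines the sets, had 17.6, 3.71, 2.38 and 89.0 in SNT and 97.5, 104, 94.3 and 112 in CCI. Its difference over 4 and 4 libraries was −3.01 and that within set 1, which this choice all but fixes, −0.21.

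In the other direction, too, 10 genes of lowest p were named by the rule. Apod, apolipoprotein D, was at 20, 55.4, 39.0 and 11.3 FPKM in SNT and 7.36, 2.55, 3.49 and 1.99 in CCI, a difference of 2.63 (SE 0.55). Dcn, the matrix proteoglycan decorin of fibroblasts, was at 7.24, 10.2, 7.48 and 2.62 in SNT and 1.5, 0.371, 0.800 and 0.860 in CCI, with 1.99 (SE 0.44). In both genes the SNT library of set 1 is the lowest of SNT, and it is above all CCI libraries by the rule. Within set 1 the 7 dpi differences were 1.75 and 0.98. Ccl4, a chemokine for monocytes and lymphocytes, was at 28.7, 61.6, 21.0 and 19.3 in SNT and 16.2, 9.47, 12.3 and 4.15 in CCI. It differed by 1.52 over both days and by 1.30 within set 1.

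Sult1a1, a phenol sulfotransferase, was at 78.0, 115, 141 and 34.1 FPKM in SNT and 28, 21.0, 15.8 and 21.3 in CCI. Rac3, a small GTPase, had 23.4, 30.2, 23 and 11.8 in SNT and 8.10, 6.36, 5.09 and 6.84 in CCI. The SNT library of set 1 is again the lowest of its group in both. Clec4d and Retnla encode a C-type lectin of myeloid cells and a secreted product of alternatively activated macrophages. They differed by 2.11 and 2.37 over both days and by 0.52 and 0.48 within set 1 at 7 dpi. Stmn3, a neuronal tubulin-binding protein, differed by 1.67 and by 2.04 within set 1. The unnamed gene 2310009A05Rik and Clasp2, a microtubule plus-end protein, differed by 1.61 and 1.16, and by 0.68 and 0.31 within set 1. Clasp2 also separates the library sets. Of all 10799 tested genes, 112 were lower and 408 higher in set 1 without overlap over the 30 libraries. Of the 124 genes higher in SNT without overlap 11 (8.9%) were among the 112, and of the 284 lower ones 21 (7.4%) among the 408. Because replicate 2 of SNT at 7 dpi lies in set 1, these shares do not tell how many of the other genes follow the sets.

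**Figure D3:**
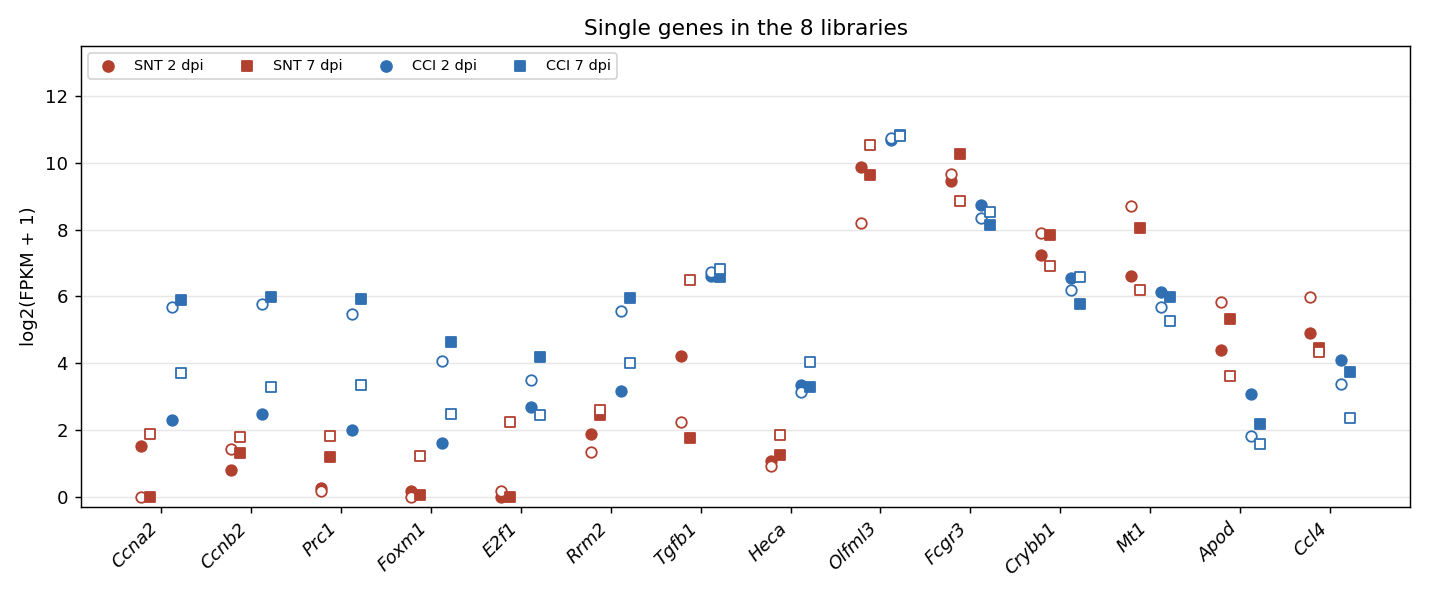
log2(FPKM + 1) of 14 genes in the 8 libraries, SNT in red and CCI in blue, circles for 2 dpi and squares for 7 dpi, filled for replicate 1 and open for replicate 2. Ccna2 to Rrm2 show the 2 high CCI libraries, and Tgfb1 the SNT 7 dpi replicate 2 (open red square) at the level of CCI, at 89.0 FPKM.

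For several gene groups the difference over the 8 libraries was absent or of the other sign within set 1. Ribosomal protein genes, whose near-identical pseudogene copies make FPKM uncertain, were higher in SNT for 58 of 61 tested, with a median of 0.88 and 15 at an unadjusted p under 0.05. Fau, which encodes ribosomal protein S30, was at 961, 2781, 1835 and 283 FPKM in SNT and 260, 361, 263 and 333 in CCI. Only the 3 set 2 libraries of SNT are high. Inside set 1 the list had the opposite sign, with 52 of 61 lower in SNT at 7 dpi and a median of −0.31. All 7 dpi libraries of SNT and CCI gave 0.66. With the set as a term over 30 libraries its median was −0.27. Genes of oxidative phosphorylation were higher in 39 of 42, with a median of 0.69 over both days and 0.37 at 7 dpi. Their median was −0.24 within set 1 at 7 dpi and −0.20 with the set as a term. Cox8a, a small subunit of cytochrome c oxidase, was at 295, 1042, 391 and 140 in SNT and 143, 152, 155 and 105 in CCI, again high in set 2 alone.

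These 2 lists hold short transcripts, with median lengths of 906 and 693 bases, and transcript length moved with the difference over all genes. With genes split by length into 3 equal classes, the median was 0.05 in the short, −0.46 in the middle and −0.54 in the long class. The middle class has a median length of 3044 bases, and the mitosis list one of 3236. The part of transcript length in these differences was not tested.

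Lists with lower values in SNT behaved likewise. Endoplasmic reticulum (ER) stress genes were lower in 16 of 21 tested, with a median of −0.82, cholesterol synthesis genes in 21 of 22, with −0.86, complement genes in 9 of 12, with −1.0, and heat shock genes in 15 of 18, with −0.66. At 7 dpi alone these medians were −0.23, −0.58, −0.35 and −0.24. Within set 1 at 7 dpi they were 0.38, 0.14, 0.09 and 0.54, all on the other side of 0, where all tested genes had 0.13. With the set as a term over 30 libraries they were −0.11, −0.11, 0.04 and −0.08. Hspa5, the ER chaperone BiP, was at 148, 35.5, 121 and 572 FPKM in SNT and 538, 383, 493 and 284 in CCI. Pdia4, an ER disulfide isomerase, differed by −1.69 over both days and by 0.32 within set 1. C4b, complement component 4, was at 0.604, 0.308, 0 and 21.7 in SNT and 14.7, 9.17, 11.2 and 21.9 in CCI, and Sqle, squalene epoxidase, at 0.836, 0.672, 4.41 and 6.50 and at 8.19, 9.27, 12.7 and 2.56. In all these genes the SNT library of set 1 is at or above the CCI range or inside it.

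Leaving out replicate 2 of SNT at 7 dpi makes the sets and the injuries coincide in all 7 remaining libraries. Without it 1488 genes passed as lower in SNT (13.8%) and 316 as higher (2.93%). The share called lower was 14 of 34 (41.2%) for mitosis, 12 of 31 (38.7%) for replication and 8 of 21 (38.1%) for ER stress genes, and 25 of 61 ribosomal protein genes (41%) were called higher. At 7 dpi 1 SNT library then remains, replicate 1, in which 8466 genes reached 1 FPKM. Calls on that day rest on this 1 library against 2 of CCI. None of the calls made without replicate 2 of SNT at 7 dpi can be told apart from the library sets.

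**Figure D4:**
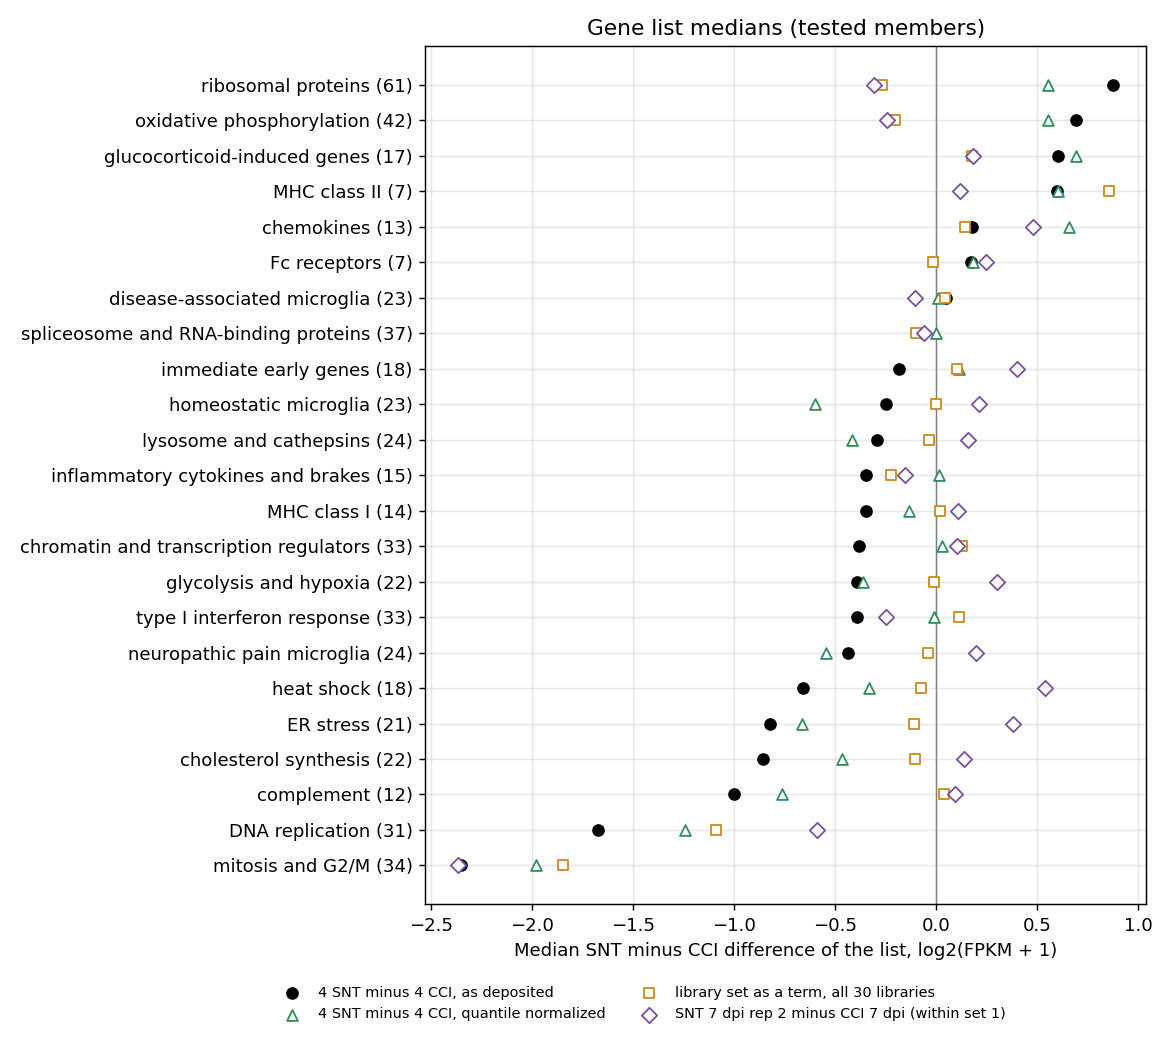
Median SNT minus CCI difference of each gene list (number of tested members in brackets), in log2(FPKM + 1): 4 against 4 libraries as deposited (black) and after quantile normalization (green), with the library set as a term over 30 libraries (orange), and SNT 7 dpi replicate 2 minus CCI 7 dpi, which lie in the same set (purple). Mitosis stays below −1.8 in all 4, while ribosomal proteins move from 0.88 over both days (0.66 at 7 dpi) to −0.31.

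Most genes that define microglia, and their pain-related receptors, overlapped between the injuries. P2ry12, the homeostatic ADP receptor, was at 1114, 562, 953 and 1053 FPKM in SNT and 1147, 898, 684 and 1550 in CCI, a difference of −0.20 (SE 0.43). The signs of this gene, Tmem119, Cx3cr1 and Csf1r change when the 2 SNT libraries with few genes are left out. Tmem119 (−0.43), Cx3cr1, the fractalkine receptor (−0.04), and Csf1r (−0.74) overlapped as well, and replicate 2 of SNT at 2 dpi was the lowest of the 8 for all 4 of these genes, with 262 FPKM of Tmem119 and 469 of Csf1r. The homeostatic list as a whole had a median of −0.25 (14 of 23 negative), and −0.60 after quantile normalization. Within set 1 at 7 dpi its median was 0.21, with 5 of 23 negative, where all tested genes had 0.13. Olfml3, a secreted protein of homeostatic microglia, was at 946, 294, 798 and 1483 in SNT and 1630, 1696, 1827 and 1789 in CCI. It does not overlap, and it differed by −1.19 over both days and −0.29 within set 1. Crybb1, a crystallin that microglia express early in development, went the other way, with 149, 237, 226 and 120 in SNT and 93.0, 72.0, 53.7 and 94.0 in CCI, 1.20 over both days and 0.74 within set 1.

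For the purinergic receptors of neuropathic pain, P2rx4 was at 19.0, 6.49, 17.2 and 50.2 FPKM in SNT and 46.7, 28.9, 36.9 and 43.8 in CCI (−1.03, SE 0.48), and P2rx7 differed by −0.87 (SE 0.55). Irf8, the transcription factor upstream of P2rx4, differed by −0.48 (SE 0.47). The toll-like receptor gene Tlr4 was at 19.7, 2.98, 0.0741 and 27.4 in SNT and 26.1, 22.4, 21.5 and 27.1 in CCI, so that 2 set 2 libraries are far below the rest. Il1b and Tnf, the inflammatory cytokines, differed by 0.48 and −0.35 (SE 0.48 and 0.36), and Xcl1 was below the level filter. The list of pain-related genes had 17 of 24 negative and a median of −0.44, which was −0.55 after quantile normalization, beside 0.00 for all genes. It was −0.90 at 2 dpi and 0.03 at 7 dpi. Within set 1 at 7 dpi the median was 0.20, with 6 of 24 negative, where all tested genes had 0.13. P2rx4, P2rx7 and Irf8 differed there by 0.31, 0.27 and 0.32.

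Apoe, a lipid carrier that disease-associated microglia raise, was at 1011, 978, 2714 and 1540 FPKM in SNT and 948, 441, 682 and 1213 in CCI. It differed by 0.89 (SE 0.44), with overlap, and by 0.76 within set 1 and 1.07 with the set as a term. Cst3, cystatin C and the most abundant microglial message, was at 46189, 95123, 66554 and 16911 in SNT and 17870, 12793, 10120 and 13831 in CCI, and it separates the 2 sets. Fcgr3, an activating Fc receptor, was at 695, 818, 1234 and 463 in SNT and 426, 325, 280 and 369 in CCI. It differed by 1.12 over both days and by 0.52 within set 1, and it separates the 2 sets too. MHC class II genes were positive in 7 of 7, with a median of 0.60. H2-Aa was at 53.7, 39.4, 104 and 9.37 in SNT and 14.3, 8.38, 6.94 and 15.1 in CCI, so the SNT library of set 1 lies inside the CCI range. The class II median was 0.38 at 7 dpi, 0.12 within set 1 on that day, with 3 of 7 negative, and 0.86 with the set as a term. The metallothioneins Mt1 and Mt2, induced by glucocorticoids and metals and alike enough in sequence for their values to be uncertain, differed by 1.63 and 2.15, and by 0.57 and 1.16 within set 1.

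Transcripts of neurons and astrocytes had a larger SNT minus CCI difference at 7 than at 2 dpi, though no gene passed the test of the interaction. The neuron list, 13 of 20 tested with 8 admitted through SNT alone, had a median of −0.02 at 2 dpi and 2.04 at 7 dpi, and astrocyte genes −0.24 and 1.45. The neuron list summed to 14 and 65.7 FPKM in SNT at 2 dpi and 76.8 and 132 at 7 dpi, against 70.1 and 7.3 in CCI at 2 dpi and 18.4 and 6.1 at 7 dpi. Controls span 4.82 to 92.5, so 7 of these 8 sums lie inside the control range and that of replicate 2 of SNT at 7 dpi above it. Uchl1, an abundant neuronal hydrolase, was at 3.01, 4.19, 5.47 and 5.53 in SNT and 3.98, 0.285, 0.559 and 0.598 in CCI. Within set 1 replicate 2 of SNT at 7 dpi was above all 4 CCI libraries for 13 of 13 neuron genes, with a median of 1.89, where 22.5% of all genes were. Of these 13, 8 were admitted through SNT alone, and the 4 admitted through both injuries are too few to read against that share. Replicates 1 and 2 of SNT at 7 dpi, with neuron sums of 76.8 and 132 and in different sets, had mitosis means of 1.30 and 1.39. The part of such transcripts in the other differences was not tested.

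At 2 dpi the genes of lowest p were listed at 0 in one of the injuries. Pigf and Yipf2 were at 7.98 and 5.91, and at 7.42 and 5.78 FPKM, in SNT and listed at 0 in both CCI libraries of that day. Fpgs and Chid1 were listed at 0 in SNT at 2 dpi and at 11 and 4.99, and 6.29 and 5.22, in CCI. The microRNA gene Mir6236 was at 14 and 36.1 in SNT and 0 and 0.758 in CCI. A listed 0 can be a failed estimate for such genes, so no fold is given. All 3 SNT-high genes were at 0 in both SNT libraries at 7 dpi too.

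Among the genes of lowest p at 7 dpi, Ckmt1, a mitochondrial creatine kinase, was at 10.3 and 3.83 FPKM in SNT and 0.403 and 0.216 in CCI, and Penk, the enkephalin precursor of dorsal horn neurons, at 8.79 and 3.43 and at 0.583 and 0.243. Neil3, a DNA glycosylase of dividing cells, was at 0.0633 and 0.185 in SNT and 8.98 and 2.59 in CCI, with both SNT libraries below both CCI libraries and a difference of −2.41 (SE 0.62). Prg2, eosinophil major basic protein, was at 0 and 0.199 in SNT and 8.74 and 4.29 in CCI. None passed the test (adjusted p = 0.938 for each, limma). The interaction, which asks whether the injury difference changes with the day, had 0 genes called and 137 at an unadjusted p under 0.05, with a median SE of 0.90 over genes. The mitosis median moved by −0.15 between days in that test, and the replication median by 0.81.

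**Figure D5:**
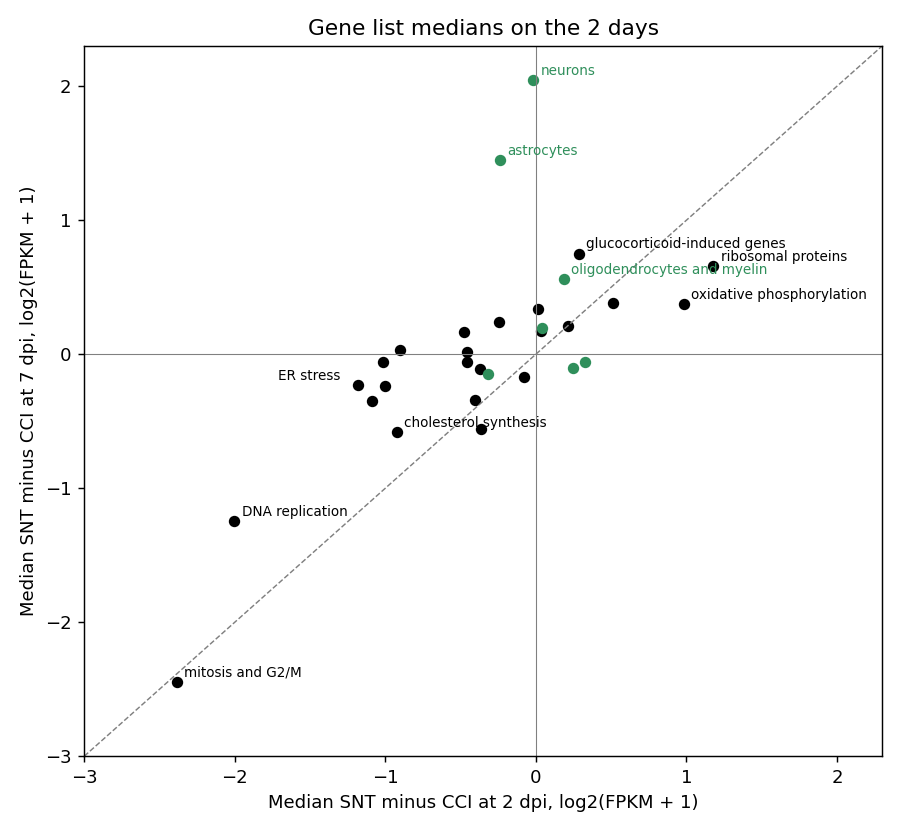
Median SNT minus CCI difference of each gene list with at least 5 tested members at 2 dpi (x) and 7 dpi (y), in log2(FPKM + 1); lists of other cell types are green and the dashed line marks equal values. Neurons and astrocytes lie far above the line, at 2.04 and 1.45 on the y axis, and mitosis lies close to it.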

How the data were processed

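The authors deposited 1 table of FPKM for 30 Smart-Seq2 libraries. The submitters' processing notes name the build mm10, the counter featureCounts 1.4.6, the assembler Cufflinks 2.2.1, the aligner HISAT2 2.0.5.1 and also DESeq2, without saying which made the deposited FPKM. Of 24888 rows, 826 with 281 repeated symbols were left out, and 24062 genes remained. From the FPKM of the 8 libraries, log2(FPKM + 1) was fitted in limma 3.58.1 (R 4.3.3) with 4 group means and an intensity trend (4 residual degrees of freedom), over 10799 genes with at least 1 FPKM in at least 2 libraries. Calls needed a Benjamini-Hochberg adjusted p under 0.05. The fit was tested on simulated data. An exact permutation test of 4 against 4 libraries cannot go below p = 0.02857 (two-sided), so no single value was tested so.

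Named were, over both days, the 10 genes of lowest p per direction with a group mean of at least 5 FPKM and no overlap between SNT and CCI. To these came the 3 lowest p per direction in the other tests, up to 4 members per list with the largest difference, and 15 fixed genes. Not all are printed, and some further members of the lists were chosen after their values were seen. The members and lists were chosen with earlier results of these data known. Library sets were defined from the data, not by the labels. Transcript lengths come from GENCODE vM21. Alternatives covered the pseudocount, level filter, scaling, spread, array weights, replicate block, left-out libraries and, chosen after seeing the data, the library set as a term. Replicate numbers did not pair the libraries.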

Additional observations from a re-analysis of the deposited data

Results flagged for a closer look

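In 386 sets of 4 libraries of 1 injury (70 for list means and 316 for genes), 13 had 1 library far from the other 3 by Dixon's test, for which chance gives about 1 in 20, or 19 of 386, so their number is below what chance would give. Among SNT libraries, replicate 2 at 7 dpi was the highest for E2f1 at 3.707 FPKM (others 0 to 0.1349), Foxm1 at 1.319 (0 to 0.1316), C4b at 21.69 (0 to 0.6036) and Jund, an AP-1 subunit, at 23.28 (3.294 to 4.238). It was listed at 0 for the ribosomal protein gene Rps27 (233 to 578.6 in the others). Replicate 1 of that day had Evi2b at 13.84, with the others listed at 0. Replicate 2 at 2 dpi was the lowest for Fcrls, a microglial Fc receptor-like gene, at 239.7 (657.8 to 764.9).

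Among CCI libraries, replicate 1 at 2 dpi was the highest for Ckmt1 at 1.848 FPKM (0.2157 to 0.4032), Uchl1 at 3.983 (0.2846 to 0.5976), Jund at 27.32 (10.78 to 11.62) and Fcer1g, the Fc receptor gamma chain, at 882.8 (755.7 to 774.1). Replicate 2 at 2 dpi was listed at 0 for Rps27 (38.92 to 82.15). Replicate 2 at 7 dpi was the lowest for Insig1, a brake on cholesterol synthesis, at 5.242 (12.45 to 13.31).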

How the results depend on the processing

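Of 122 counts of called genes under alternatives, 102 were 0, as reported. Leaving out 1 library gave 0 to 1804 genes over both days, 0 to 11 at 2 dpi, 0 to 410 at 7 dpi, and 0 to 1 for the interaction and for day. The high values over both days and at 7 dpi came without replicate 2 of SNT at 7 dpi, and 11 at 2 dpi without either library of SNT at 7 dpi. Over both days the spread of all 30 libraries gave 2 (Htra3, Spns2). Leaving out the 2 SNT libraries with few genes (replicate 2 at 2 dpi, replicate 1 at 7 dpi) gave 1 over both days (Evi2b) and 1 at 2 dpi (Gngt2). Leaving out the closest pair, replicate 2 of SNT at 7 dpi and replicate 1 of CCI at 2 dpi, gave 3 over both days (Gngt2, Rn45s, Rps27), 2 at 2 dpi (Rn45s, Rps27) and 1 each for the interaction and day (Rn45s). The library set as a term gave 1 over both days and 1 at 2 dpi with 8 libraries (Evi2b), and 1 at 7 dpi with 30 libraries (Kcnt1, 2.70, SE 0.45). Among the 8 libraries only SNT at 7 dpi lies in both sets, so its replicates alone fix the term. The Evi2b calls rest on listed 0 values in SNT. No filter on level gave 2 at 2 dpi (Pigf, Yipf2). The replicate block gave 0 calls in all 5 tests, with 654 at an unadjusted p under 0.05 over both days. The cause of these changes was not tested.

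Of 775 list medians under alternatives, 69 moved by more than the spread between replicates. The mitosis median ranged from −3.12 to −1.72 with 1 library left out, both ends from CCI at 2 dpi. Of single genes, 38 of 1729 values changed sign. With the set as a term over 8 libraries the values were −0.7772 for Retnla, 0.5398 for Tgfb1, 0.9082 for C4b, 0.1102 for Hspa5, 0.1837 for Pdia4, −0.1708 for Fau, −0.7483 for H2-Aa, 0.01107 for Tmem119, 0.854 for Cx3cr1, 0.1414 for Csf1r, 0.09275 for P2rx4, 0.6514 for P2rx7, 0.1355 for Irf8 and 1.714 for Tlr4. Over 30 libraries they were 0.278 for C4b, −0.00784 for Fau, 0.1209 for P2ry12, 0.311 for Cx3cr1, 0.2404 for P2rx7 and 0.1484 for Tlr4. Without the 2 SNT libraries of few genes they were 0.08302 for P2ry12, 0.3069 for Tmem119, 0.7705 for Cx3cr1, 0.2371 for Csf1r, 0.109 for P2rx7 and 0.209 for Irf8. Median-ratio scaling gave 0.1478 for P2ry12 and 0.3044 for Cx3cr1, and quantile normalization 0.01237 for Tnf. Without the 2 CCI libraries of high mitosis values Il1b was at −0.05907. Without replicate 2 of SNT at 2 dpi, P2ry12 was at 0.04716, Tmem119 at 0.1584, Cx3cr1 at 0.4717 and Irf8 at 0.004932. P2ry12 was at 0.09571 without replicate 2 of CCI at 7 dpi, and Cx3cr1 at 0.2564, 0.1653 and 0.06834 without replicate 1 of SNT at 7 dpi, of CCI at 2 dpi and of CCI at 7 dpi. With 1 library left out the ranges were −0.4941 to 0.09571 for P2ry12, −1.027 to 0.1584 for Tmem119, −0.5565 to 0.4717 for Cx3cr1 and −0.9583 to 0.004932 for Irf8. The files hold no counts, so the share of this spread due to depth is unknown.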
